A study of Mus musculus with 16 samples.

Results

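The 35 genes described here are a set of macrophage and myeloid genes, matched to the gene symbols of a count table of mouse mammary organoids. They were chosen with earlier results of these data known. All 35 were present among the 55487 genes of the table, and all 35 passed the filter on low counts together with 24252 genes in all. They were read in every sample as a measure of how much immune-cell RNA an organoid library held, and of how far single genes followed that level. Organoids are small clusters of tissue cells that grow and organise themselves in culture. RNA sequencing covered 16 organoid samples, of which 3 were WT, 4 carried mutant PIK3CA, 4 carried mutant HER2 and 5 carried both mutations and are called the double mutant. The series title names the alleles as HER2V777L and PIK3CAH1047R. HER2 is a receptor tyrosine kinase of breast epithelium, and PIK3CA is the gene of a catalytic chain of phosphoinositide 3-kinase. All samples were grown with epidermal growth factor, B27 supplement and medium conditioned with Rspo1 and Noggin. The source tissue is labelled as normal breast for WT and as breast tumor for every mutant sample, so genotype and source tissue cannot be told apart in a comparison with WT. The promoter that drives each allele, the age of the animals and the number of animals behind the samples are not given in the labels. No label says that samples of a genotype came from separate animals or cultures, and the p-values then measure only the spread between these samples.

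Macrophages are phagocytes that live in most tissues, where they engulf dead cells and debris, digest them in lysosomes and present or clear foreign material. In the mammary gland they lie along the ducts and take part in remodelling of the tissue, and in breast tumors they are among the common immune cells. The transcription factor encoded by Spi1 is needed for myeloid development, and signalling through the receptor encoded by Csf1r keeps most macrophages alive. Most genes of the set are transcribed in blood-derived cells and little in epithelium, while others, among them Cd14, Cd68, Lgmn and Lcp1, are also known from epithelial or tumor cells. In bulk samples such as these, fewer cells of a type and less RNA per cell cannot be told apart.

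Because many of the members moved together, their promoters were searched for GAGGAAGT, letters of the known binding consensus of the Spi1 product, on both strands. RefSeq windows of 300 bases on GRCm38.p6, from 250 bases before to 50 after a start site, were matched by symbol for 25 members with 35 windows. The members with no window in this table were Ncf4, Adgre1, Spi1, Csf2rb, Tyrobp, Hvcn1, Tlr7, Cd14, C1qa and Csf1r. The 8 letters occurred in 2 of 35 member windows (5.71%) and in 3.20% of all 32851 windows. The shorter core GAGGAA, which is contained in the longer motif, occurred in 18 of 35 member windows (51.4%), belonging to 16 members, and in 28.3% of all windows. A match describes letters in a window and is not a measured binding site. The windows with the longer motif belong to C1qc, a chain of the complement starter C1q, and to Ctss, a lysosomal protease. They are printed because they are the only member windows that hold it. They are shown from 250 bases before the start site through the first 6 transcribed bases, 5′ to 3′ on the gene's strand, with the motif in capitals as its reverse complement. The C1qc window lies at chr4:136892909-136893164 on the minus strand, with the motif beginning at position -195 from the start site, and the Ctss window at chr3:95526536-95526791 on the plus strand, with the motif beginning at position -2. These start sites are those of RefSeq. In the GENCODE annotation C1qc begins farther upstream, at chr4:136893065, so part of its window lies inside the gene as placed there.
C1qc: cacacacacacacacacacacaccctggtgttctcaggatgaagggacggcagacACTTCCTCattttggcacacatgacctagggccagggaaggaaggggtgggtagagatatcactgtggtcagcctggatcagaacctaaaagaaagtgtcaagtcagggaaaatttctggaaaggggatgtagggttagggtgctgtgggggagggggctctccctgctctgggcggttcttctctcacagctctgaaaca
Ctss: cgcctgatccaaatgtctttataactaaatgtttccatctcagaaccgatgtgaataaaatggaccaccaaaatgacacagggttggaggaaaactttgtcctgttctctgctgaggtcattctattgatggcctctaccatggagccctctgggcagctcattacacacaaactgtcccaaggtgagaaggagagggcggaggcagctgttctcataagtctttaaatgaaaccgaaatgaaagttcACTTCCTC

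Total counts were 48010713 to 57800959 in WT, 47639790 to 64168308 in PIK3CA mutant, 45545182 to 52938963 in HER2 mutant and 50771543 to 56507646 in double mutant samples. At this depth 3 counts, the smallest number taken as detection, correspond to 0.0477 to 0.0668 CPM, the counts relative to library size after scaling with TMM factors. All 8 epithelial markers were tested and were present in every sample, with Epcam, an epithelial adhesion molecule, at 479 to 699 CPM, so the libraries fit the label of mammary organoids by these markers. HER2 mutant samples 1 and 2 stood apart from samples 3 and 4 of their genotype in the myeloid genes, and the counts and medians that involve HER2 mutant organoids are therefore also given without samples 1 and 2, an alternative that was chosen after seeing the data.

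WT organoids held abundant myeloid RNA, and most mutant organoids held almost none. The summed level of the 35 members was 3613, 1777 and 6675 CPM in WT samples 1, 2 and 3. It was 734 to 875 CPM in PIK3CA mutant, 646 to 1038 CPM in HER2 mutant and 349.6 to 585 CPM in double mutant samples. All WT samples lay above all mutant samples. Much of what was left in the mutants was Cd14, Lcp1, Lgmn and Cd68. Wipf1 was at 11.5 to 35.7 CPM in HER2 mutant samples and at 2.50 CPM or less in the other mutant samples. These 5 genes were set aside with these values known, so the sum of the others describes the set and is no test of it. The other 30 members summed to 2639, 962 and 5547 CPM in WT, to 8.81, 5.93, 29.8 and 12.1 CPM in PIK3CA mutant, to 373, 137, 8.57 and 7.80 CPM in HER2 mutant, and to 6.77, 7.97, 6.83, 5.91 and 5.85 CPM in double mutant samples. By this sum HER2 mutant samples 1 and 2 lay between WT and the other 11 mutant samples, and PIK3CA mutant sample 3 was the highest of those 11. No member was at 0 counts in any WT sample or in HER2 mutant samples 1 and 2, whereas 2 to 4 members were at 0 in PIK3CA mutant samples, 6 and 5 in HER2 mutant samples 3 and 4, and 5 to 9 in double mutant samples.

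**Figure D1:**
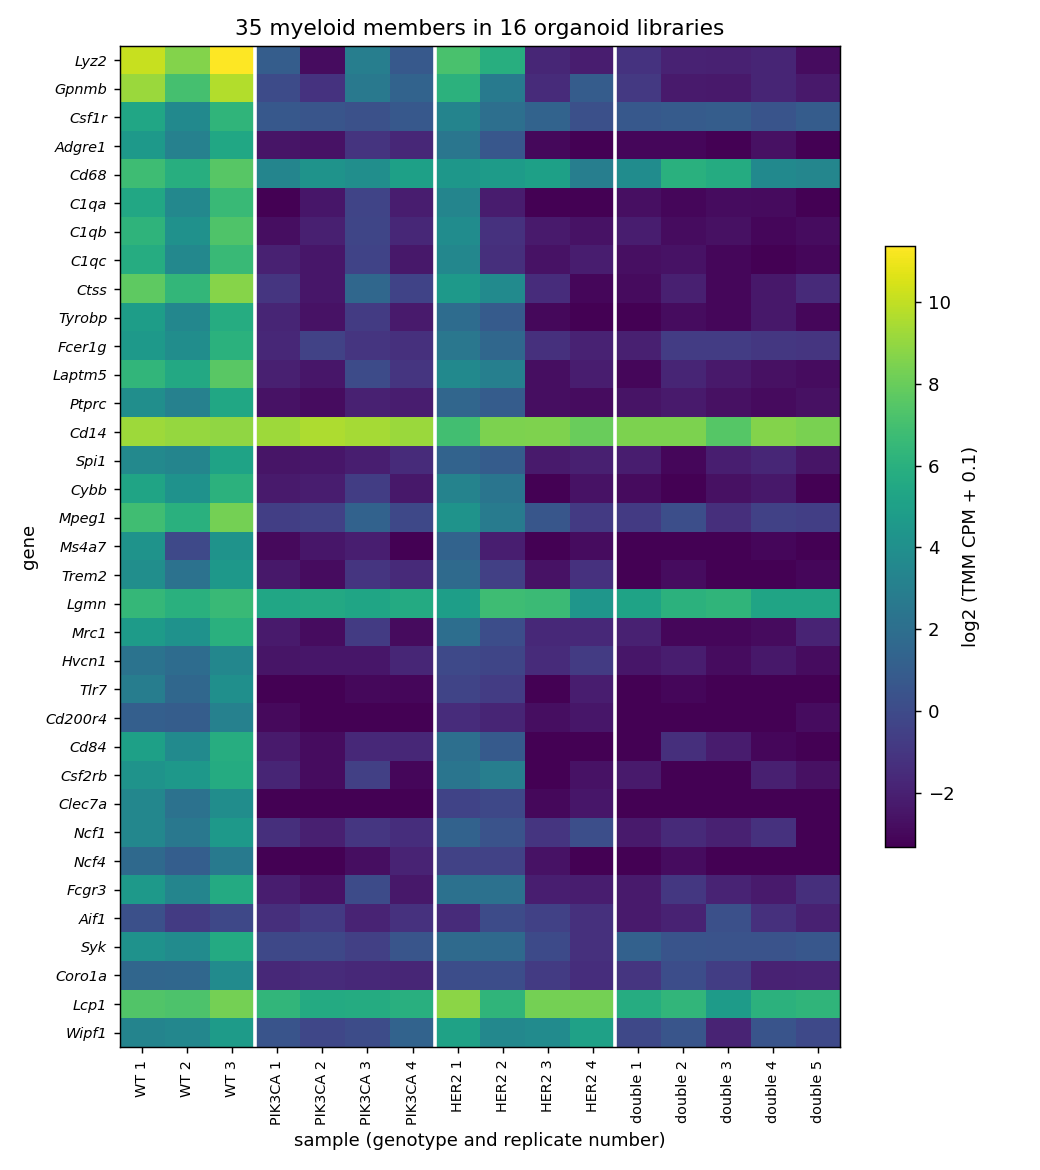
Level of the 35 members (rows) in the 16 organoid samples (columns, white lines between genotypes), as log2 of TMM-scaled CPM plus 0.1. The 3 WT columns are bright for most members, HER2 1 and HER2 2 are intermediate, and the remaining mutant columns are dark in most rows, with brighter cells for Cd14, Lcp1, Lgmn, Cd68 and, in HER2 3 and HER2 4, Wipf1.

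Against WT, 32 of 35 members fell in PIK3CA mutant organoids and none rose, where 3.03% of all tested genes were called lower and 1.49% higher (edgeR quasi-likelihood test, Benjamini-Hochberg adjusted p under 0.05 over all tested genes). In HER2 mutant organoids 26 members fell and none rose, beside 5.63% lower and 4.75% higher of all genes. In double mutant organoids 32 fell and none rose, beside 6.72% lower and 5.03% higher. The median log2 fold change of the members was -7.22 in PIK3CA mutant, -3.98 in HER2 mutant and -8.66 in double mutant organoids, against medians of -0.03, 0.03 and 0.01 over all genes tested. Every WT sample was above every mutant sample for 34 members in PIK3CA mutant, 30 in HER2 mutant and 32 in double mutant organoids, while this held for 15.7%, 12.4% and 13.4% of all genes tested. The 3 comparisons share the WT samples. Since the members were chosen with earlier results known, these counts describe the set and are no test of it. When each sample was left out in turn, 29 of the 32 calls in PIK3CA mutant and 30 of the 32 in double mutant organoids were never lost, and the exceptions were C1qa, Cd68 and Lcp1 in the former and Cd68 and Lcp1 in the latter. In HER2 mutant organoids 19 of the 26 calls were lost in at least 1 such fit. For HER2 mutant organoids the number of called members rested on the fit and on single WT samples: 3 were called when only WT and HER2 mutant samples were fitted, 7 without WT sample 3 and 13 without WT sample 1, but 29 without HER2 mutant samples 1 and 2, when the median was -7.33.

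**Figure D2:**
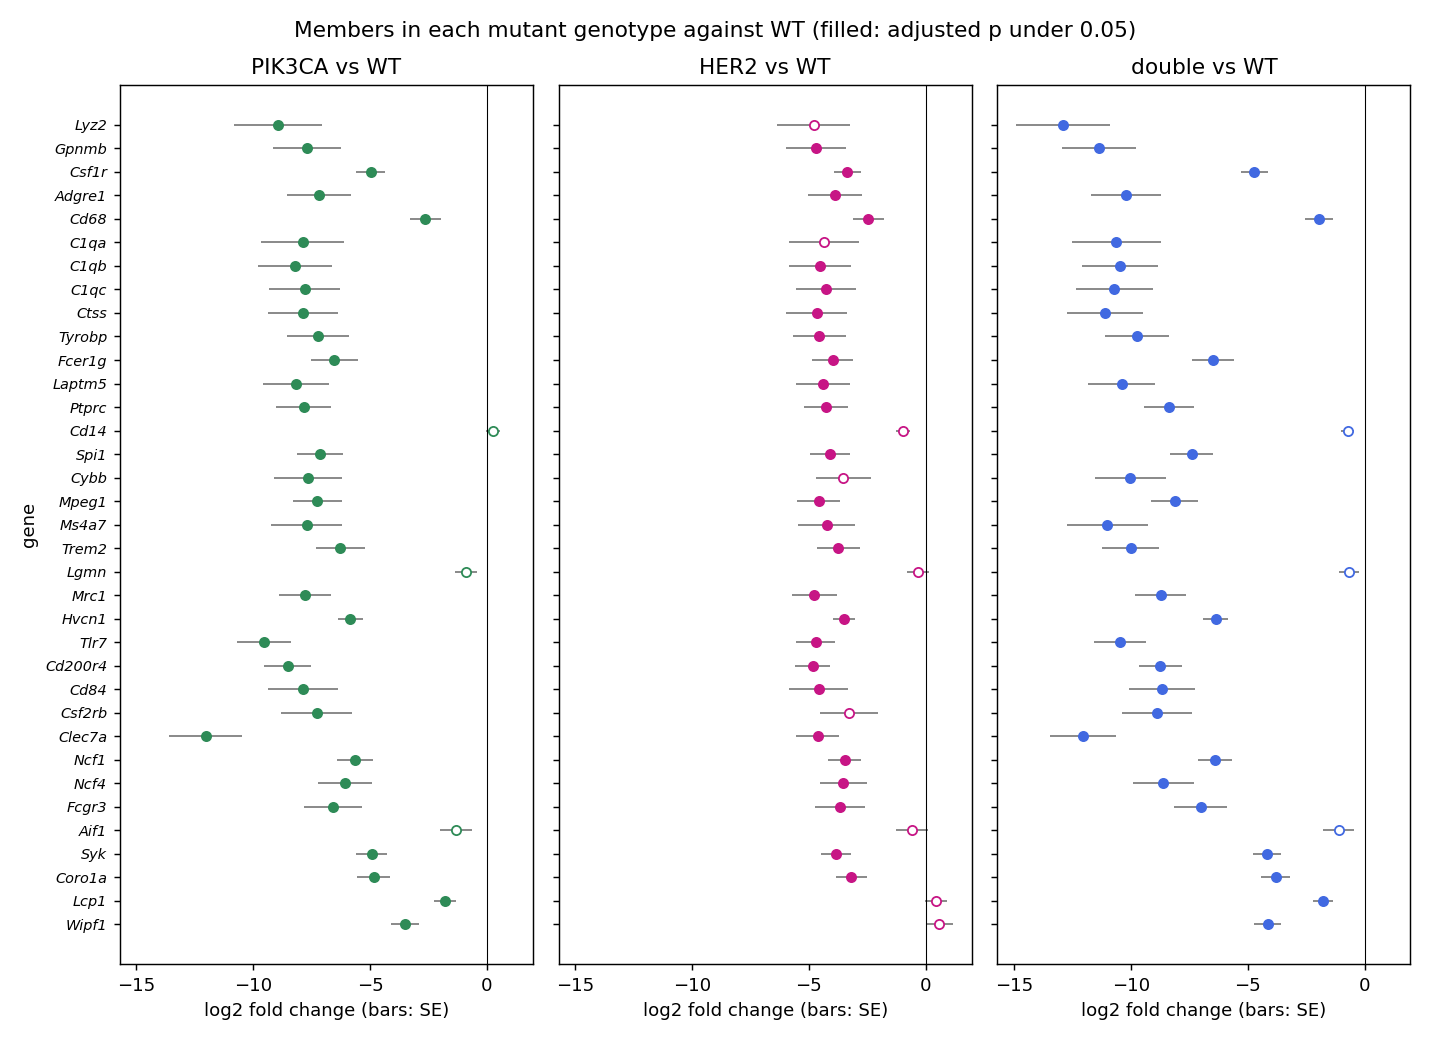
Fitted log2 fold change of each member against WT in PIK3CA mutant, HER2 mutant and double mutant organoids, with the standard error as a bar and filled points for adjusted p under 0.05 (edgeR). Filled points lie left of 0 in all 3 panels, those of HER2 mutant organoids closer to 0, and Cd14, Lgmn and Aif1 are open in every panel. The points of Clec7a in PIK3CA mutant and double mutant organoids come from groups with 0 counts and depend on the model.

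Among genes that set up and maintain the lineage, Spi1, the myeloid transcription factor, was at 12.01, 10.1 and 36.3 CPM in WT, 0.0795, 0.0826, 0.133 and 0.250 CPM in PIK3CA mutant, 2.43, 1.81, 0.111 and 0.143 CPM in HER2 mutant and 0.124, 0.0210, 0.137, 0.203 and 0.0778 CPM in double mutant samples. No mutant sample reached a WT sample, and HER2 mutant samples 1 and 2 were the highest of the mutants. Its log2 fold change was -7.13 ± 0.99 (SE) in PIK3CA mutant, -4.10 ± 0.85 in HER2 mutant and -7.39 ± 0.92 in double mutant organoids, with edgeR adjusted p of 0.00110, 0.00758 and 0.000208. Ptprc, the phosphatase CD45 that marks all nucleated blood-derived cells, was at 15.1, 8.70 and 43.2 CPM in WT, 0.0636, 0.0413, 0.155 and 0.125 CPM in PIK3CA mutant, 2.73, 1.81, 0.0445 and 0.0409 CPM in HER2 mutant and 0.0709, 0.105, 0.0589, 0.0369 and 0.0583 CPM in double mutant samples. Again the groups did not overlap with WT, and 11 mutant samples were at 0.155 CPM or less. The log2 fold changes of Ptprc were -7.84, -4.26 and -8.36 in PIK3CA mutant, HER2 mutant and double mutant organoids (edgeR adjusted p of 0.00135, 0.0118 and 0.000291). Adgre1, an adhesion receptor used to mark mouse macrophages, was at 23.7, 8.62 and 43.7 CPM in WT, at 5.36, 1.48, 0.0223 and 0 CPM in HER2 mutant and at 0 to 0.354 CPM in the other mutant samples, and it fell in all 3 comparisons.

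Csf1r, the receptor for the growth factors Csf1 and Il34, kept a floor that most members did not. Its level was 40.8, 12.5 and 79.8 CPM in WT, 1.54, 1.38, 1.17 and 1.54 CPM in PIK3CA mutant, 9.68, 4.09, 2.49 and 1.11 CPM in HER2 mutant and 1.54, 1.78, 1.88, 1.33 and 1.87 CPM in double mutant samples. Every mutant sample was below every WT sample, but all PIK3CA and double mutant samples were within 1.17 to 1.88 CPM, well above the detection limit. The log2 fold change was -4.97 ± 0.63 (SE), -3.35 ± 0.59 and -4.72 ± 0.57 in PIK3CA mutant, HER2 mutant and double mutant organoids, with edgeR adjusted p of 0.000802, 0.00312 and 0.000208. An exon of Csf1r overlaps an exon of Hmgxb3 on the opposite strand, and whether the counting used strand is not given in the sources used here, so reads of the 2 genes cannot be told apart there. Csf2rb, the shared receptor chain for the cytokines GM-CSF, interleukin 3 and interleukin 5, was at 18.6, 23.0 and 53.1 CPM in WT and at 5.07, 7.79, 0 and 0.0614 CPM in HER2 mutant samples. It fell in PIK3CA mutant and double mutant organoids, while in HER2 mutant organoids the log2 fold change of -3.28 ± 1.24 (SE) had an edgeR adjusted p of 0.105. Csf2rb has a close paralog, Csf2rb2, and reads from shared sequence could have been assigned to either. The ligands themselves stayed present in every genotype, with Csf1 at 57.7 to 65.9 CPM in WT and 42.7 to 121 CPM in mutant samples. Il34 was at 7.41 to 10.0 CPM in WT and 1.70 to 8.41 CPM in HER2 mutant samples. It was below every WT sample in PIK3CA mutant samples, at 3.43 to 4.27 CPM, and in double mutant samples, at 2.27 to 5.78 CPM. Neither ligand was called in a comparison with WT. Of the 8 colony-stimulating factors and receptors tested, Csf1r and Csf2rb included, 4, 1 and 5 fell in PIK3CA mutant, HER2 mutant and double mutant organoids.

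Genes of antimicrobial killing and lysosomal digestion held the most abundant members. Per kilobase of exon, the WT mean was highest for Lyz2 at 1055 CPM per kb, followed by Cd14 at 312, Ctss at 172 and Cd68 at 95.9, and lowest for Aif1 at 0.515. Lyz2, the lysozyme of macrophages, was at 1109, 405 and 2649 CPM in WT, 1.89, 0.0413, 7.84 and 1.59 CPM in PIK3CA mutant, 142, 58.2, 0.200 and 0.123 CPM in HER2 mutant and 0.337, 0.168, 0.157, 0.185 and 0.0389 CPM in double mutant samples. All mutant samples were below the lowest WT sample, and within the HER2 mutant group the samples differed by about 3 orders of magnitude. The log2 fold change was -8.94 ± 1.87 (SE, adjusted p = 0.0109) in PIK3CA mutant, -4.79 ± 1.56 (adjusted p = 0.0627) in HER2 mutant and -12.90 ± 1.998 (adjusted p = 0.000739) in double mutant organoids by edgeR. The neighbouring paralog Lyz1 is nearly identical in sequence, and reads could have been split between the pair. Ctss, the protease cathepsin S, was at 208, 85.0 and 409 CPM in WT, 0.382, 0.0826, 2.94 and 0.661 CPM in PIK3CA mutant, 23.6, 12.97, 0.267 and 0.0205 CPM in HER2 mutant and 0.0355, 0.147, 0.0196, 0.0924 and 0.233 CPM in double mutant samples, and it fell in all 3 comparisons without overlap with WT. Mpeg1, a pore-forming protein of phagosomes, was at 117, 64.0 and 317 CPM in WT and 0.294 to 18.9 CPM in mutants, Laptm5, a lysosomal membrane protein of blood cells, at 80.8, 45.9 and 196 CPM and 0.0177 to 12.3 CPM, and Gpnmb, a glycoprotein of lysosome-rich macrophages, at 570.2, 132 and 807 CPM and 0.0972 to 68.7 CPM. Each of these 3 genes fell in every comparison with WT, with the highest mutant value in HER2 mutant sample 1.

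Cd68 and Lgmn, which also serve digestion in lysosomes, kept substantial levels in mutant organoids. Cd68, a lysosomal membrane glycoprotein, was at 112, 60.4 and 189 CPM in WT, 10.3, 18.7, 15.2 and 33.2 CPM in PIK3CA mutant, 21.9, 26.3, 32.0 and 7.78 CPM in HER2 mutant and 14.0, 65.4, 53.4, 12.5 and 10.7 CPM in double mutant samples. Double mutant samples 2 and 3 came near WT sample 2, the lowest of WT, and sample 2 exceeded it. The log2 fold changes of Cd68 were -2.64, -2.46 and -1.95 in PIK3CA mutant, HER2 mutant and double mutant organoids, all called, with edgeR adjusted p of 0.0309, 0.0281 and 0.0475. These calls did not hold up when samples were left out: they were lost in 5 of 7, 4 of 7 and 5 of 8 such fits, with the highest adjusted p, of 0.184, 0.145 and 0.249, without WT sample 3. WT sample 1, PIK3CA mutant samples 1, 2 and 3, HER2 mutant samples 1 and 4, and double mutant samples 1, 4 and 5 were the others without which a call ended. The call in double mutant organoids also ended with upper-quartile scaling, that in HER2 mutant organoids without HER2 mutant samples 1 and 2, and both with fits of only the genotypes compared. Lgmn, the protease legumain, was at 86.9, 63.0 and 100.1 CPM in WT, 41.6, 46.5, 39.4 and 51.03 CPM in PIK3CA mutant, 30.6, 111, 103 and 21.0 CPM in HER2 mutant and 36.8, 70.7, 79.4, 37.5 and 37.7 CPM in double mutant samples. HER2 mutant samples 2 and 3 exceeded all WT samples, while samples 1 and 4 lay below them, and Lgmn did not pass the test in any comparison (log2 fold changes against WT of -0.90, -0.33 and -0.67). Of 18 general lysosomal genes outside the set, 5, 8 and 7 fell in PIK3CA mutant, HER2 mutant and double mutant organoids and none rose, with median log2 fold changes of -0.31, -0.54 and -0.45.

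The 3 chains of C1q, the molecule that opens the classical complement pathway and that tissue macrophages make, had similar log2 fold changes against WT. On GRCm38 the genes lie side by side on the minus strand of chromosome 4, C1qb at chr4:136880129-136886187, C1qc at chr4:136889804-136893065 and C1qa at chr4:136895917-136898803. C1qb was at 75.0, 16.9 and 159 CPM in WT, 0.0477, 0.145, 0.753 and 0.214 CPM in PIK3CA mutant, 14.0, 0.328, 0.111 and 0.0614 CPM in HER2 mutant and 0.124, 0.0420, 0.0589, 0.0185 and 0.0389 CPM in double mutant samples. HER2 mutant sample 1 reached nearly the level of WT sample 2, and no other mutant sample was above 0.753 CPM. C1qa was at 44.2, 11.6 and 100.1 CPM in WT and 10.1, 0.116, 0 and 0 CPM in HER2 mutant samples, and C1qc at 54.8, 11.6 and 99.96 CPM and 11.1, 0.289, 0.0668 and 0.123 CPM. In PIK3CA mutant organoids the 3 chains fell, with log2 fold changes of -7.88, -8.21 and -7.80 for C1qa, C1qb and C1qc, and in double mutant organoids these were -10.62, -10.45 and -10.71. The call of C1qa in PIK3CA mutant organoids was lost without WT sample 3 (edgeR adjusted p = 0.0853) and without PIK3CA mutant samples 1, 2 or 4, while those of C1qb and C1qc were not lost in any fit without a sample. In HER2 mutant organoids C1qb and C1qc were called (edgeR adjusted p of 0.0397 and 0.0437) and C1qa was not (0.0755), at log2 fold changes of -4.52, -4.26 and -4.35. Of 13 other complement genes, 4, 6 and 5 fell in PIK3CA mutant, HER2 mutant and double mutant organoids, and C3 rose in PIK3CA mutant organoids. Among these the receptors C3ar1 and C5ar1 fell in all 3 comparisons, with C3ar1 at 35.5, 22.3 and 85.5 CPM in WT and 0.0709 to 8.81 CPM in mutants.

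Receptors for microbial and cellular ligands differed in what was left of them in mutants, from Clec7a, with no counts in 2 genotypes, to the abundant Cd14. Clec7a, a receptor for fungal glucans, was at 10.9, 4.56 and 14.5 CPM in WT and 0.679, 0.810, 0.0223 and 0.0819 CPM in HER2 mutant samples, and had 0 counts in all 4 PIK3CA mutant and all 5 double mutant samples. Against the level of 3 counts over the group, it was at least 706-fold lower in PIK3CA mutant and at least 866-fold lower in double mutant organoids than in WT. Tlr7, an endosomal receptor for single-stranded RNA, was at 7.43, 2.92 and 16.03 CPM in WT and 0.698, 0.501, 0 and 0.123 CPM in HER2 mutant samples. It had 2 counts in all PIK3CA mutant samples and 1 in all double mutant samples, so that WT was higher by 974-fold (95% counting interval 269 to 8048) and 2389-fold (428 to 94409). Other members with so few counts in a group were Cd200r4, of the CD200 receptor family, with 2 counts in PIK3CA mutant and 2 in double mutant organoids (WT higher by 473-fold, 130 to 3912, and 580.0-fold, 160.0 to 4798). In double mutant organoids these were also Ms4a7, a membrane protein of macrophages, with 1 count (3479-fold, 624 to 137457), Trem2, a lipid-sensing receptor, with 3 (1295-fold, 442 to 6282) and Ncf4, with 2 (529-fold, 146 to 4373). These intervals cover counting error only, not the spread between samples. Mrc1, the mannose receptor, was at 26.4, 18.1 and 64.6 CPM in WT and 0.0196 to 3.83 CPM in mutants, and Cd84, an adhesion receptor of the SLAM family, at 32.5, 12.9 and 57.9 and 0 to 4.05 CPM. Mrc1, Cd84, Trem2, Ms4a7, Cd200r4, Tlr7 and Clec7a fell in all 3 comparisons with WT.

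Cd14, the co-receptor for bacterial lipopolysaccharide, did not pass the test in any comparison with WT. It was at 599.6, 528 and 492 CPM in WT, 599.8, 752, 676 and 573 CPM in PIK3CA mutant, 123, 357, 372 and 262 CPM in HER2 mutant and 352, 357, 183, 403 and 346 CPM in double mutant samples. PIK3CA mutant samples overlapped with WT and reached above it, and all HER2 mutant and double mutant samples lay below both. The log2 fold change against WT was 0.27 ± 0.31 (SE, edgeR adjusted p = 0.729) in PIK3CA mutant, -0.96 ± 0.30 (adjusted p = 0.0561) in HER2 mutant and -0.72 ± 0.29 (adjusted p = 0.117) in double mutant organoids. HER2 mutant sample 1, which held the most myeloid RNA of the mutants, had the lowest Cd14 of all 16 samples. Cd14 was 599.6 CPM in WT sample 1 and 492 CPM in WT sample 3, although the 30 members summed above were lower in sample 1. Among 10 tested Toll-like receptors, Tlr7 included, 4, 5 and 5 fell in PIK3CA mutant, HER2 mutant and double mutant organoids, and Tlr5, the flagellin receptor, rose in all 3, from 6.78, 8.81 and 5.92 CPM in WT to 9.47 to 28.4 CPM in mutants. Tlr4, which works with Cd14, stayed at 42.1 to 58.3 CPM in WT and 11.3 to 44.1 CPM in mutants and was called only in HER2 mutant organoids (-1.22 on the log2 scale, edgeR adjusted p = 0.0285).

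**Figure D3:**
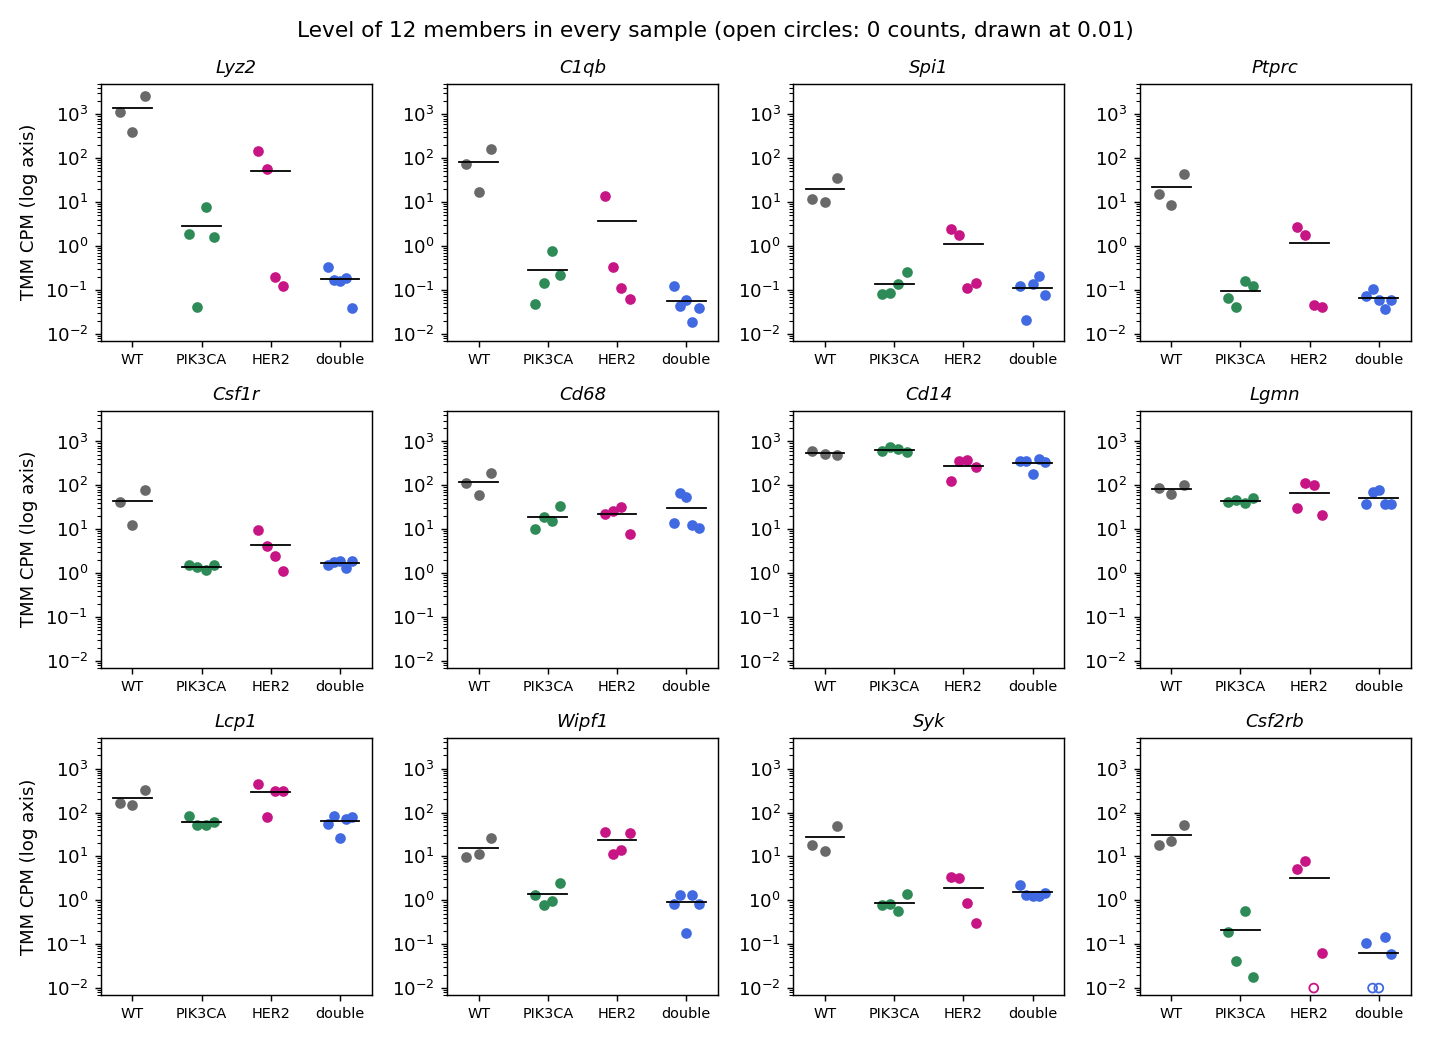
TMM-scaled CPM (log axis) of 12 members in every sample by genotype, with a line at the group mean and open circles at 0.01 for 0 counts. Lyz2, C1qb, Spi1, Ptprc and Csf2rb drop by orders of magnitude with HER2 mutant samples 1 and 2 between, Csf1r and Syk keep 0.307 CPM or more in every sample, and Cd14, Lgmn, Lcp1 and Wipf1 follow other patterns.

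Adaptors and receptors that signal through ITAM motifs, short tyrosine sequences that recruit the kinase Syk, fell in each mutant genotype. Tyrobp, an adaptor also called DAP12, was at 29.0, 11.1 and 54.2 CPM in WT, 0.191, 0.0620, 0.487 and 0.107 CPM in PIK3CA mutant, 3.58, 1.75, 0.0223 and 0 CPM in HER2 mutant and 0, 0.0420, 0.0196, 0.0924 and 0.0194 CPM in double mutant samples. Its partner adaptor Fcer1g, the shared gamma chain of Fc receptors, was at 23.7, 14.5 and 66.4 CPM in WT, and its 11 lower mutant samples stayed between 0.142 and 0.640 CPM, above the detection limit. Fcgr3, an activating receptor for antibody, was at 25.0, 10.0 and 50.6 CPM in WT and 4.28, 4.41, 0.134 and 0.123 CPM in HER2 mutant samples, nearly equal in HER2 mutant samples 1 and 2. Syk itself was at 17.9, 13.4 and 50.5 CPM in WT, 0.795, 0.806, 0.576 and 1.38 CPM in PIK3CA mutant, 3.34, 3.14, 0.890 and 0.307 CPM in HER2 mutant and 2.25, 1.32, 1.26, 1.26 and 1.46 CPM in double mutant samples. All mutant samples were below WT, and double mutant samples lay above HER2 mutant samples 3 and 4. The log2 fold changes of Syk were -4.93, -3.82 and -4.17 in PIK3CA mutant, HER2 mutant and double mutant organoids (edgeR adjusted p of 0.00104, 0.00243 and 0.00046). Of 16 genes of the ITAM and Syk pathway, these 3 signalling members included, 9, 10 and 9 fell and none rose. Lyn, a kinase that phosphorylates ITAM motifs, was not called and lay at 91.2 to 97.0 CPM in WT and 37.2 to 154 CPM in mutants.

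The phagocyte NADPH oxidase makes superoxide inside phagosomes. Cybb, its membrane-bound catalytic subunit, was at 37.8, 18.2 and 70.7 CPM in WT, 0.111, 0.124, 0.531 and 0.0893 CPM in PIK3CA mutant, 9.45, 5.05, 0 and 0.0614 CPM in HER2 mutant and 0.0355, 0, 0.0589, 0.0924 and 0 CPM in double mutant samples. It fell in PIK3CA mutant (-7.66 ± 1.45 SE) and double mutant organoids (-10.02 ± 1.51), while -3.53 ± 1.18 in HER2 mutant organoids had an edgeR adjusted p of 0.0683. The cytosolic subunits Ncf1 and Ncf4 were at 11.2, 5.84 and 25.1 and 3.13, 2.02 and 6.64 CPM in WT and 0 to 2.34 and 0 to 0.641 CPM in mutants, and both fell in all 3 comparisons. Ncf1 shares an exon overlap with Gtf2ird2 on the opposite strand. Hvcn1, the proton channel that balances the charge moved by the oxidase, was at 4.81, 3.60 and 11.2 CPM in WT, 0.0795, 0.0826, 0.0886 and 0.196 CPM in PIK3CA mutant, 0.830, 0.752, 0.245 and 0.491 CPM in HER2 mutant and 0.0887, 0.126, 0.0393, 0.0924 and 0.0389 CPM in double mutant samples. Here all HER2 mutant samples were above all PIK3CA mutant and double mutant samples, samples 3 and 4 included, and Hvcn1 overlaps an exon of Tctn1 on the opposite strand. Its log2 fold changes against WT were -5.83, -3.49 and -6.37 (edgeR adjusted p of 0.000122, 0.000768 and 1.17e-05). Over the 6 oxidase subunits listed, 3 of them members, 5, 4 and 5 fell. Cyba, the subunit that other cell types also use, was the subunit not called in any genotype, at 31.1 to 49.8 CPM in WT and 3.52 to 42.5 CPM in mutants.

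Genes of the actin cytoskeleton differed among themselves. Lcp1, the actin-bundling protein L-plastin, was at 165, 152 and 321 CPM in WT, 81.8, 50.98, 52.6 and 61.9 CPM in PIK3CA mutant, 455, 77.1, 309 and 313 CPM in HER2 mutant and 55.4, 82.2, 26.5, 70.5 and 79.0 CPM in double mutant samples. HER2 mutant samples 1, 3 and 4 were near or above the highest WT sample, and sample 2 was below all of WT. Lcp1 fell in PIK3CA mutant (-1.78 ± 0.46 SE, edgeR adjusted p = 0.0372) and double mutant organoids (-1.76 ± 0.43, adjusted p = 0.0146) and was 0.44 ± 0.46 (adjusted p = 0.594) in HER2 mutant organoids. The call in PIK3CA mutant organoids was lost in 6 of 7 fits without a sample, all but the one without WT sample 2, and that in double mutant organoids without WT sample 3, where the adjusted p were 0.258 and 0.124. Wipf1, which binds and stabilises the actin regulator WASP, was at 9.95, 11.1 and 26.5 CPM in WT, 1.32, 0.764, 0.952 and 2.50 CPM in PIK3CA mutant, 35.7, 11.5, 13.8 and 34.5 CPM in HER2 mutant and 0.816, 1.34, 0.177, 1.29 and 0.836 CPM in double mutant samples. All 4 HER2 mutant samples, those with and those without other myeloid RNA, were above the lowest WT sample and above every PIK3CA and double mutant sample. Wipf1 fell in PIK3CA mutant (-3.51) and double mutant organoids (-4.15 on the log2 scale), with edgeR adjusted p of 0.00295 and 0.000366, and was 0.59 ± 0.57 (SE, adjusted p = 0.559) in HER2 mutant organoids. Coro1a, an actin-binding coronin of blood cells that overlaps an exon of Bola2 on the opposite strand, was at 2.74, 2.94 and 13.5 CPM in WT and 0.166 to 1.03 CPM in mutants and fell in all 3 comparisons. Aif1, the calcium-binding actin regulator Iba1, was low throughout, at 1.08, 0.480 and 0.801 CPM in WT and 0.106 to 1.08 CPM in mutants, with log2 fold changes of -1.32, -0.57 and -1.11 that did not pass the test.

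HER2 mutant samples 1 and 2 both held myeloid RNA but differed in its makeup. In sample 1, the 29 members other than Cd14, Lgmn, Aif1, Cd68, Lcp1 and Wipf1 stood at 6.18% (Cd200r4) to 22.8% (Trem2) of their WT mean. In sample 2 the same members spread from 0.223% (C1qa) to 24.7% (Csf2rb). The level in sample 2 was 0.0115 of that in sample 1 for C1qa, 0.0234 for C1qb, 0.0261 for C1qc, 0.0542 for Ms4a7 and 0.0967 for Gpnmb. By contrast it was 0.550 for Ctss, 0.663 for Ptprc, 0.992 for Ncf4, 1.03 for Fcgr3 and 1.53 for Csf2rb. The summed C1q level per unit of Ptprc, a ratio of CPM, was 12.8 in sample 1 and 0.404 in sample 2, against 11.5, 4.61 and 8.30 in WT samples 1, 2 and 3. These ratios rest on 1862 C1q and 145 Ptprc counts in sample 1 and on 38 and 94 counts in sample 2. A weaker form of this split was present within WT for part of these genes. WT sample 2 had 0.0445 of the level of sample 3 for Ms4a7, 0.106 to 0.116 for the C1q chains, 0.201 for Ptprc and 0.432 for Csf2rb. Gpnmb at 0.163 lay closer to Fcgr3 at 0.198 and Ctss at 0.208, and Ncf4 was at 0.304. With single libraries on each side these ratios carry no test.

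**Figure D4:**
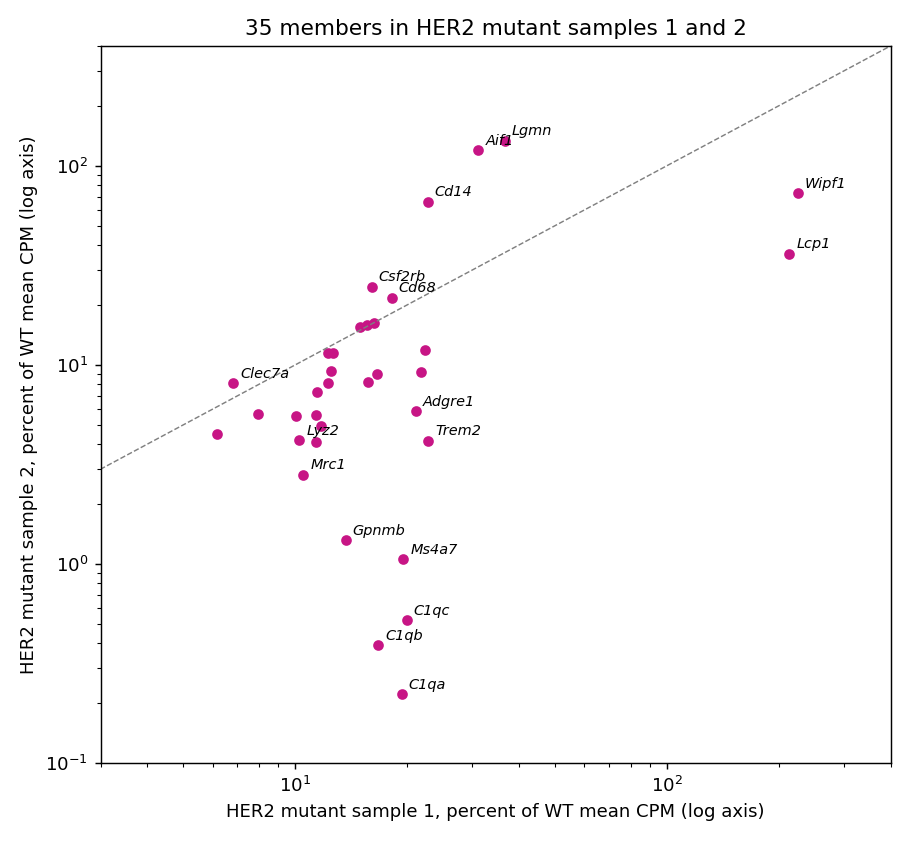
Level of each member in HER2 mutant sample 1 (horizontal) and sample 2 (vertical), as percent of the WT mean on log axes, with a dashed line where both are equal. C1qa, C1qb, C1qc, Ms4a7 and Gpnmb lie far below the line, from 0.223% to 1.32% of WT in sample 2, Csf2rb lies above it, and Cd14, Lgmn and Aif1 lie higher in sample 2 while Lcp1 and Wipf1 exceed 200% of WT in sample 1.

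Between the mutant genotypes, fewer calls were made. Most of them were lost without HER2 mutant samples 1 and 2, and most were also lost without some single samples of the other genotype. The double mutant against the HER2 mutant had 21 members lower and none higher, beside 1.47% and 1.03% of all genes, with a member median of -4.10 on the log2 scale against -0.02 over all genes. Without HER2 mutant samples 1 and 2 the median was -0.24 and 2 members were called, and without HER2 mutant sample 1 alone 8 were called. Leaving out double mutant samples 1, 2, 3, 4 or 5 left 5, 10, 9, 5 and 5 called, and a fit of only these 2 genotypes left 1. A fit with samples blocked by replicate number also left 1. Wipf1 had the lowest adjusted p, at -4.74 ± 0.57 (SE, edgeR adjusted p = 0.00098), and Lcp1 was -2.20 ± 0.41 (adjusted p = 0.0123). The call of Lcp1 was lost in the blocked fit and in the fit of only these 2 genotypes, while that of Wipf1 was kept. The HER2 mutant against the PIK3CA mutant had 5 members higher, beside 2.21% of all genes, and 1 lower, beside 2.20%. Those higher were Wipf1 (4.10), Lcp1 (2.22), Hvcn1 (2.35), Tlr7 and Clec7a, with edgeR adjusted p of 0.00188, 0.0120, 0.0174, 0.0301 and 0.0479, and the member that was lower was Cd14 (-1.22 ± 0.29 SE, adjusted p = 0.0253). The member median in this comparison was 3.02, and -0.67 without HER2 mutant samples 1 and 2, when 2 members were called; without PIK3CA mutant samples 1, 2 or 3 the number called was 2, 1 and 2, and without HER2 mutant samples 3 or 4 it was 13 and 15. The double mutant against the PIK3CA mutant had no member called lower or higher by edgeR, beside 0.363% and 0.309% of all genes, with 5 members at an unadjusted p under 0.05 and 2 called by DESeq2, and its median was -0.87.

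The interaction sets the log2 change in the double mutant beside the 2 single-mutant changes added together. It was positive for 3 members and negative for none by the edgeR test, beside 0.515% and 0.544% of all genes. The 3 members were Csf1r (3.60 ± 0.78 SE, adjusted p = 0.0392), Syk (4.59 ± 0.85, adjusted p = 0.0179) and Coro1a (4.22 ± 0.90, adjusted p = 0.0376). A positive value says that the double mutant was less far below WT than those added changes, and all 3 genes kept levels of 0.196 CPM or more in every PIK3CA mutant sample. Whether such remaining levels set the positive values was not tested, and exons of Csf1r and Coro1a overlap genes on the opposite strand. The median over the members was 2.16, and 6.27 without HER2 mutant samples 1 and 2, when 17 were called. The count was 0 with samples blocked by replicate number. It was also 0 without WT sample 3, PIK3CA mutant sample 2 or PIK3CA mutant sample 3, and 6 without HER2 mutant sample 1. It was 1 without PIK3CA mutant samples 1 or 4, HER2 mutant sample 3, or double mutant samples 1 or 3.

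How far each member followed the others was described by the correlation of its log2 CPM with the mean log2 CPM of the other members, without a test. Over all 16 samples the median Pearson r was 0.966, and 27 of 35 members were over 0.9. The highest was Ptprc at 0.991, followed by Mpeg1 at 0.990. Lowest were Cd14 at 0.0830, Lgmn at 0.412, Aif1 at 0.489, Lcp1 at 0.548, Wipf1 at 0.649 and Cd68 at 0.695. The difference between WT and mutants enters into this r. The same was therefore computed over the 13 mutant samples, where the median was 0.879, and over deviations from the genotype means, where it was 0.853. Within the mutants Laptm5 (0.968), Ptprc (0.964), Adgre1 (0.959) and Mpeg1 (0.957) followed most closely, while Cd68 was at 0.0758, Lgmn at 0.0360 and Cd14 at -0.407. Leaving out HER2 mutant samples 1 and 2, the 2 farthest from the median, brought the median down to 0.467 over 11 samples, with 18 members under 0.5, so most of the relation within the mutants rested on those 2 libraries. In these 11 samples C1qc (0.872), Laptm5 (0.867), Trem2 (0.843) and Gpnmb (0.832) still varied together at levels of a few counts upward, with PIK3CA mutant sample 3 the highest for C1qc, Laptm5, Trem2 and Gpnmb. Cd14 was at 0.521 over these 11 samples, above the median. The points share library depth and scaling, and many of the members are close to the detection limit there.

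Genes outside the set with the most similar pattern were picked by the same correlation. They had to average at least 1 CPM over all 16 samples, WT included. Over the 13 mutant samples they were Lyz1, Clec4n, Fcgr2b, Msr1, Cd93, Ly9, Nckap1l, Lilr4b, Rgs1 and Itgax, with r from 0.976 to 0.937. Lyz1 averaged 21.8 CPM in WT and was at most 1.74 CPM in a mutant, and Fcgr2b, the inhibitory antibody receptor, averaged 44.9 and reached 8.19 CPM. After subtraction of genotype means over 16 samples they were Lyz1, Ly9, Clec4n, C5ar1, Inpp5d, Cd300ld, Fcgr2b, Clec4d, Atp6v0d2 and Nckap1l, with r from 0.972 to 0.921. Lyz1, Ly9, Clec4n, Fcgr2b and Nckap1l were in both lists. Genes low in mutants could pass the limit of 1 CPM through WT alone, so the WT and mutant levels given here are no separate result. Neither list was computed without HER2 mutant samples 1 and 2.

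A second list of 28 macrophage genes outside the set, of which 24 were tested, shared the direction of the set by its median. This list was also chosen with earlier results of these data known. In PIK3CA mutant, HER2 mutant and double mutant organoids 15, 10 and 20 of them fell and 1 rose in each, with median log2 fold changes of -5.50, -3.33 and -5.69. Irf8, a myeloid transcription factor, was at 8.41, 2.96 and 17.4 CPM in WT and 0 to 3.60 CPM in mutants. Itgam, the integrin chain CD11b, was at 2.97, 4.36 and 8.01 CPM in WT and 0 to 1.28 CPM in mutants, with its highest mutant values in HER2 mutant samples 1 and 2. The gene that rose was Cd163, a scavenger receptor for haemoglobin, at 3.57, 7.62 and 4.80 CPM in WT, 65.2, 51.8, 60.1 and 47.8 CPM in PIK3CA mutant, 29.5, 21.0, 20.0 and 20.7 CPM in HER2 mutant and 49.6, 46.9, 48.5, 61.1 and 54.7 CPM in double mutant samples. Every mutant sample was above every WT sample, with log2 fold changes of 3.40 ± 0.25 (SE), 2.10 ± 0.23 and 3.29 ± 0.24. Mertk, a receptor for dying cells, fell in PIK3CA mutant and double mutant organoids but was -0.60 (edgeR adjusted p = 0.346) in HER2 mutant organoids.

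Several defining markers of other blood-derived cells were at or near 0 in every sample, while other genes of these lists were present throughout. Over the 10 T cell markers the summed level was 3.85 to 12.05 CPM, with Cd3d and Cd2 at 0 to 0.0445 and 0 to 0.150 CPM in all samples, but Cd5 at 1.63 to 6.997 and the kinase gene Lck at 0.757 to 1.47 CPM. Cd3e, a further T cell marker, was at 0.472, 0.320 and 0.484 CPM in WT and highest in HER2 mutant sample 2, at 1.97 CPM. The B cell marker Ms4a1 did not exceed 0.0385 CPM, the NK cell marker Ncr1 0.0223 CPM and the mast cell marker Cpa3 0.0667 CPM. Cd22, listed among the B cell markers, fell with the members from 3.44, 0.840 and 6.79 CPM in WT to 0 to 0.660 CPM in mutants, and Cd4, listed among the T cell markers, fell in HER2 mutant and double mutant organoids from 1.26, 0.160 and 0.417 CPM in WT. Neutrophil markers Ly6g and Mpo did not exceed 0.0445 and 0.170 CPM, while HER2 mutant sample 1 held 2.06 CPM of S100a9 and 0.962 CPM of Cxcr2 against 0.175 and 0.129 CPM or less in every other sample. S100a8 was at 19.1, 3.76 and 7.22 CPM in WT and 1.04 to 17.0 CPM in mutants and was not called against WT. The 8 dendritic cell markers summed to 4.47 to 10.99 CPM, most of it Zbtb46 at 4.03 to 10.5 CPM. Ltf, also expressed by mammary epithelium, rose in HER2 mutant and double mutant organoids and reached 7383 CPM in HER2 mutant sample 2. In PIK3CA mutant organoids it was not called, although all samples, at 52.2 to 116 CPM, lay above WT, at 2.30 to 4.64 CPM.

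Fibroblast markers moved with the genotypes as well, and their part in the myeloid result was not tested. Of 10 such markers 1, 3 and 9 fell in PIK3CA mutant, HER2 mutant and double mutant organoids against WT, and none rose. Their summed level was 369, 1977 and 1760.0 CPM in WT, 78.8, 68.7, 188 and 496 CPM in PIK3CA mutant, 39.6, 332, 36.0 and 651 CPM in HER2 mutant and 27.99 to 61.8 CPM in double mutant samples. The group means had the same order for both sets. In WT, HER2 mutant, PIK3CA mutant and double mutant organoids they were 1369, 265, 208 and 44.7 CPM for the fibroblast markers. For the 30 members summed above, which were picked with these values known, they were 3049, 132, 14.2 and 6.67 CPM. Within genotypes some libraries were ordered otherwise: WT sample 1 had the least fibroblast RNA of WT but more than sample 2 of the 30 members, and HER2 mutant sample 4 had the most fibroblast RNA of its genotype and the least of the 30 members. Endothelial markers were low, at 2.06 to 5.07 CPM summed in WT and 0.628 to 1.999 CPM in mutants, with 2 of 4 tested lower in double mutant organoids. Of the 8 epithelial markers none was called in PIK3CA mutant organoids, Krt5 fell in HER2 mutant organoids, and Krt8 and Krt17 rose in double mutant organoids. None of the tested dendritic cell, adipocyte or erythroid markers was called against WT, and of 4 Schwann cell markers 2 fell in HER2 mutant and 1 in double mutant organoids.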

How the data were processed

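Sequencing libraries were prepared from 16 organoid RNA samples with a SMARTer kit, per the labels' protocols. The authors deposited whole-number read counts per gene. The submitters' processing notes name bcl2fastq 2.20, STAR 2.0.4b, Subread, featureCounts 1.4.5, DESeq2 1.33.5 and mm10, and the annotation and strandedness are not given in the sources used here. The deposited count table had 55774 entries, of which 287 were identical repeats and were dropped. A normalized table was not used.

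Groups follow the labelled genotype. Genes were kept with filterByExpr, scaled with TMM and tested in 1 fit of all 16 samples with edgeR 4.0.16 in R 4.3.3 (estimateDisp, glmQLFit, glmQLFTest, two-sided). P-values were adjusted by Benjamini-Hochberg over the 24252 genes tested, and genes were called at an adjusted p under 0.05. SE is the fold change divided by the square root of F. Log2 CPM used a prior count of 2. The scripts were tested on simulated data. Alternatives were upper-quartile and total-count scaling, no filter, a replicate block, fits of only the genotypes compared, DESeq2 1.42.0, a prior count of 0.5, each sample left out, and HER2 mutant samples 1 and 2 left out, the last chosen after seeing the data. All 35 members were named, other genes came from listed pathways and markers, and similar genes from the 10 highest correlations. Members and lists were chosen with earlier results of these data known. Positions and lengths are from GENCODE M21 (GRCm38) and promoters from RefSeq.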

Additional observations from a re-analysis of the deposited data

Results flagged for a closer look

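Within the PIK3CA mutant and the double mutant genotypes, 11 member values lay apart from the rest of their group, by a gap larger than the 95% critical value of Dixon's ratio. There were 105 such checks over 35 members, and chance gives about 1 in 20 for independent, normally distributed values. Genes that vary together or lie near 0 counts are not of that kind, so the number expected here is not known. In PIK3CA mutant organoids, Cybb was high in sample 3 at 0.531 CPM, where Lyz2, Gpnmb, Ctss and the C1q chains were also highest of the genotype. Hvcn1 was high in sample 4 at 0.196 CPM and Cd200r4 in sample 1 at 0.0318 CPM, the latter being the only PIK3CA mutant sample with a count. In double mutant organoids, 4 values were the only ones above 0 of the genotype: Ms4a7 in sample 4 at 0.0185 CPM, Tlr7 in sample 2 at 0.0210 CPM, Cd200r4 in sample 5 at 0.0389 CPM and Ncf4 in sample 2 at 0.0420 CPM. These correspond to 1 or 2 counts. Syk was high in double mutant sample 1 at 2.25 CPM. Fcer1g was low in sample 1 at 0.142 CPM, Cd14 in sample 3 at 183 CPM and Wipf1 in sample 3 at 0.177 CPM.

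For 3 members the log2 change in the double mutant differed from the single-mutant changes added together, by the interaction term of the edgeR fit. On the log2 scale these were Csf1r at 3.60, Syk at 4.59 and Coro1a at 4.22, with adjusted p of 0.0392, 0.0179 and 0.0376. With each of 16 samples left out in turn, Csf1r was lost in 11, Coro1a in 9 and Syk in 3, with adjusted p up to 0.161, 0.161 and 0.0772 without WT sample 3. Source tissue also differs between WT and the mutants. Exons of Csf1r and Coro1a overlap exons of Hmgxb3 and Bola2 on the opposite strand. Whether the low levels that remained in each mutant genotype set these positive values was not tested.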

How the results depend on the processing

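Counts of called members against WT in PIK3CA mutant (32) and double mutant organoids (32) stayed within 1.5 times under all alternatives, from 25 to 33 and from 30 to 33. For HER2 mutant against WT (26) the count was 17 with the replicate block, 3 with only these genotypes and 7 to 28 with a sample left out. Without HER2 mutant samples 1 and 2 its median was -7.33. For double against HER2 mutant (21) the count was 1 with the replicate block, 1 with only these genotypes, 2 without HER2 mutant samples 1 and 2 (median -0.24), and 5 to 28 with a sample left out. For HER2 against PIK3CA mutant (6) it was 2, 3, 2 (median -0.67) and 1 to 15 in the same order, and 14 by DESeq2. For double against PIK3CA mutant (0) it was 2 with only these genotypes, where the median was 0.03 in place of -0.87, and 2 by DESeq2. For the interaction (3) it was 0 with the replicate block, 17 without HER2 mutant samples 1 and 2 (median 6.27), 7 by DESeq2 and 0 to 6 with a sample left out. Fits that leave out samples or genotypes have fewer samples, and for the others the cause was not tested.

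Without HER2 mutant samples 1 and 2, the log2 fold change of double against HER2 mutant turned positive for Adgre1 (0.72), Cybb (0.25), Ptprc (0.59), Tyrobp (1.499), Itgam (2.08), Lyz2 (0.16) and Csf2rb (0.97), none of them called. Each call of a member was checked in each alternative fit that covered it. Of 1702 such checks, which share fits and samples, the call was repeated in 1395, lost in 301 and reversed in 6. Total-count scaling moved the median of all genes by over 0.1 for PIK3CA mutant against WT (-0.13), as did upper-quartile (0.12) and total-count scaling (0.14) for HER2 against PIK3CA mutant. The direction of the members' medians was the same under these scalings.

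Samples share only a replicate number. Same-numbered samples deviated together (r over 0.1) in 3 of 4 pairs of double and HER2 mutant, 1 of 4 of double and PIK3CA mutant, and none of the other pairs. With the replicate block, 25 members were called in PIK3CA mutant, 31 in double mutant and 17 in HER2 mutant organoids against WT. Depth limits members near 3 counts, 0.0477 to 0.0668 CPM, and a difference between 2 groups that both lie at or under this level was not detectable.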

Other observations

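C4b and Pf4, outside the set, were highest of all samples in HER2 mutant sample 2. C4b, a complement component, was at 513 CPM there, with 20.8, 513, 12.02 and 10.2 CPM over the 4 HER2 mutant samples. It was at 63.7, 65.5 and 73.1 CPM in WT and 2.90 to 67.7 CPM in PIK3CA mutant and double mutant samples. Pf4, a chemokine of platelets and of some macrophages, was at 0.151, 2.56, 0.0445 and 0 CPM in HER2 mutant and 0.559, 1.42 and 1.84 CPM in WT samples, so that its highest value of all 16 samples was also in HER2 mutant sample 2, where the C1q chains were at 0.116 to 0.328 CPM.

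Cd5l, a secreted protein of tissue macrophages, varied more within WT than the members did, at 62.2, 0.240 and 9.98 CPM, and had counts in no mutant sample but HER2 mutant sample 1, at 1.04 CPM. The lipid carrier Apoe was at 633, 146 and 544 CPM in WT, 126, 124, 70.1 and 121 CPM in PIK3CA mutant and 33.6, 72.5, 88.7, 93.6 and 98.7 CPM in double mutant samples. In HER2 mutant samples Apoe was at 121, 9.66, 7.43 and 8.50 CPM, high in sample 1 and low in the other 3.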
